A study of Danio rerio with 9 samples.

Results

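Translation initiation and elongation factor genes were followed in zebrafish exposed to perfluorobutane sulfonate (PFBS), a short-chain perfluorinated sulfonate. The genes were chosen by name, with earlier results of these data known. The choice took every row of the 3 deposited tables that names a single gene beginning with eif or eef and a digit. This gave 70 genes, of 12126 single gene names found in at least 1 table. The table for 32 µM held all 70 of them on 72 rows, and the tables for 16 µM and for 32 against 16 µM held 67 each, on 70 and 69 rows. A gene with several rows is represented by the row with the highest mean level.

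The 9 samples were poly(A)-selected, strand-specific RNA libraries from whole AB strain embryos at 96 h after fertilization, each a pool of 15 embryos. They fell into 3 groups of 3, namely a solvent control with 0.01% DMSO, 16 µM PFBS and 32 µM PFBS, and the labels do not state the DMSO content of the PFBS groups. All groups were dechorionated by hand at 24 h, had their medium renewed every 24 h and are labelled as kept at 37 °C. The 3 samples of a group came from separate experiments, and the tables give 1 value per group, so that a level or ratio below carries no standard deviation and the depth of each sample is unknown. Levels are given as FPKM, a read density that corrects for gene length and library size and so allows genes to be compared. Control and 32 µM levels come from the table that compares them, and 16 µM levels from the table of 16 µM against control. The tables' control levels differ slightly, so the direction at 16 µM is given by the ratio, not by the difference of the printed levels. Ratios are log2 ratios within 1 of the authors' deposited tables, and the words rose and fell are kept for q-values under 0.05 there. Because whole animals were sequenced, a change in the number of cells of a type and a change in RNA per cell cannot be told apart.

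Translation begins when initiation factors (eIFs) bring the initiator tRNA, the small ribosomal subunit and the mRNA together. eIF2 carries the initiator tRNA, eIF3 organises the small subunit, and eIF4E, eIF4G and eIF4A bind and unwind the capped end of the mRNA. Elongation factors (eEFs) then drive each step along the message: eEF1A delivers aminoacyl-tRNA, eEF1B recharges eEF1A with GTP, and eEF2 moves the ribosome forward. Phosphorylation of the eIF2 alpha subunit by eIF2 kinases, binding of eIF4E by 4E-BPs and phosphorylation of eEF2 by eEF2 kinase are the main brakes on the process, and they act on proteins, which RNA levels do not measure.

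Of all these genes, 1 had a q-value under 0.05. In the authors' deposited tables the eEF1A paralog eef1a1l2 rose at 32 µM, and it was also higher at 32 than at 16 µM, while none of the other 69 genes passed the test in any table. The called share was thus 1 of 70 members at 32 µM, beside 2.31% of all 11685 named genes in that table, and 1 of 67 for 32 against 16 µM, beside 0.427% of 11946. At 16 µM against control 0 of 67 members were called, beside 0.376% of 11968 named genes. By direction, named genes were called higher and lower in 0.159% and 0.217% of cases at 16 µM, 1.00% and 1.31% at 32 µM, and 0.301% and 0.126% for 32 against 16 µM, while both member calls were in the higher direction. With a single called gene, nothing about the members as a set is read from these shares. The smallest q-value of a member at 16 µM in the authors' deposited table was 0.998. Since the tables hold no unadjusted p-values, a count at p under 0.05 was not obtained.

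Levels in solvent control embryos set the scale for what follows, and control values are taken from the authors' deposited table for 32 µM. The members had a median control level of 43.9 FPKM, against 10.6 FPKM for all named genes of that table. Of the 70, 62 lay above that median of named genes and 33 lay in the highest 10% of them. Together they made up 2.11% of the summed FPKM of named genes in controls and 2.10% at 32 µM.

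**Figure D1:**
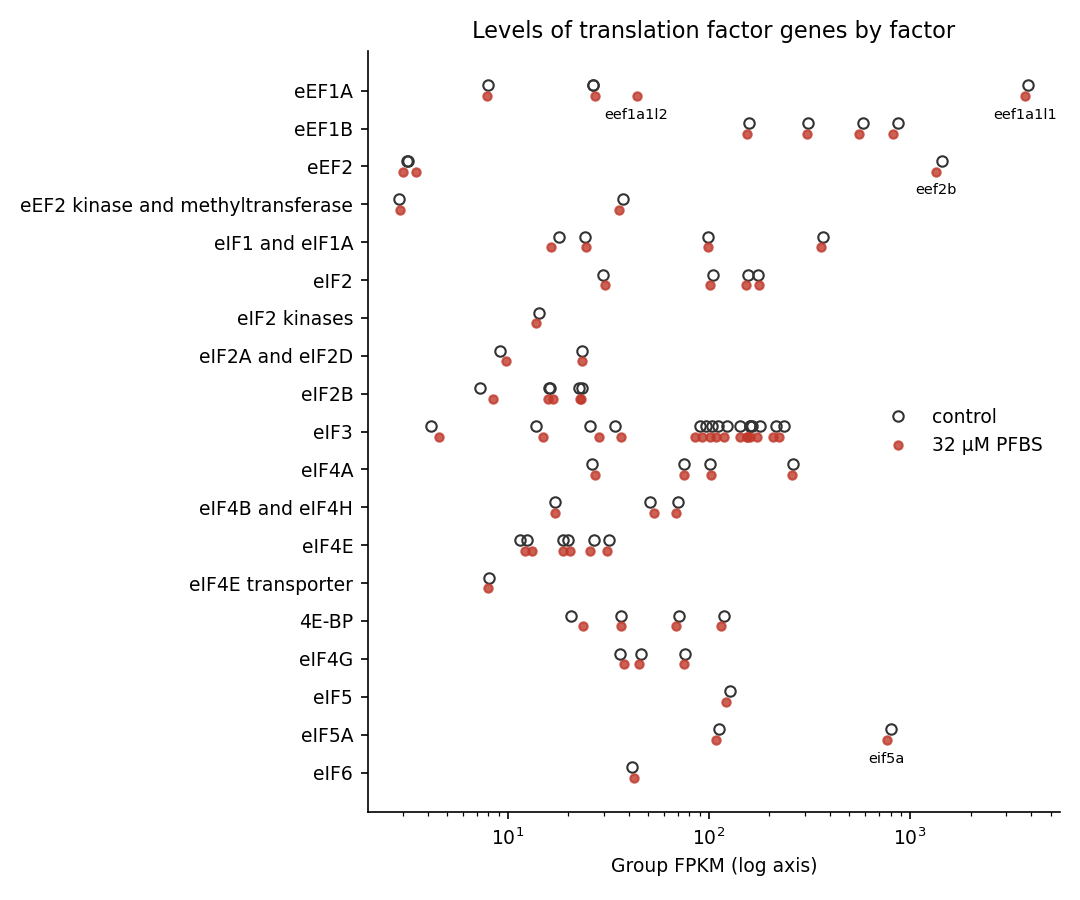
Group FPKM (log axis) of each of the 70 translation factor genes, in rows by factor, for controls (open circles) and 32 µM PFBS (red), from the authors' deposited table. The points of a gene lie almost on each other except for eef1a1l2, which moved from 26.5 to 43.7 FPKM.

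Elongation factors held the highest levels. The gene eef1a1l1, which encodes the main eEF1A of the embryo and is widely used as a reference gene in zebrafish PCR, ranked ninth of all 11685 named genes in the authors' deposited table. It had 3875 FPKM in controls, 3743 at 16 µM and 3717 at 32 µM, and its log2 ratios of -0.05 and -0.06 were not called (q = 0.998 and 0.843). Next came eef2b, the main eEF2 gene, with 1438 FPKM in controls, 1370 at 16 µM and 1342 at 32 µM in the authors' deposited tables. The ratios of eef2b were -0.05 at 16 µM (q = 0.998) and -0.10 at 32 µM (q = 0.616). The group values of both genes were thus lowest at 32 µM and highest in controls, without passing the test. Between the doses the difference was small, with ratios of 32 to 16 µM of -0.02 for eef1a1l1 and -0.05 for eef2b (both q = 0.999).

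The risen gene, eef1a1l2, is a much weaker neighbour of eef1a1l1. In the authors' deposited tables its level was 26.5 FPKM in controls, 26.9 at 16 µM and 43.7 at 32 µM, so that controls and 16 µM were nearly level and 32 µM stood apart. Its ratio was 0.03 at 16 µM (q = 0.998) and 0.72 at 32 µM (q = 0.00521), a 1.65-fold increase. That q-value is the smallest in the table for 32 µM, where eef1a1l2 is not the only gene to hold it. The direct comparison of 32 with 16 µM in the authors' deposited table gave 0.69 (q = 0.0194), so that the 2 doses themselves differed for eef1a1l2. Both calls rest on the same 32 µM samples and are not independent of each other. Among the 117 named genes called higher at 32 µM, eef1a1l2 had the eighth largest ratio, and among the 36 called higher for 32 against 16 µM the second largest. The median ratio of the named genes called higher at 32 µM was 0.34.

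In danRer7 the eef1a1l2 row spans chromosome 19, 45290961 to 45303227, and eef1a1l1 spans chromosome 19, 45287363 to 45290687. The 2 loci are 273 bases apart, and no other row of the authors' deposited tables overlaps that of eef1a1l2. Besides eef1a1l1, 10 rows lay within 100 kb in each table, of which none was called. The next gene on the far side of eef1a1l2, the ribosomal protein gene rpl11, had 1209 FPKM in controls and 1201 at 32 µM, a ratio of -0.01 (q = 0.984). On the side of eef1a1l1, the cartilage matrix gene matn1 had a ratio of -0.16 (q = 0.0887) in the same table. Ratios of the 10 rows at 32 µM ran from -0.16 to 0.42, the highest being that of an unnamed row at 1.07 FPKM in controls (q = 0.836). The rise was therefore seen on the eef1a1l2 row and not on the rows around it.

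The value of eef1a1l2 is uncertain because eEF1A paralogs share long stretches of nearly identical coding sequence, and how reads that match several of them were assigned is not given in the sources used here. The eef1a1l1 level was 146 times that of eef1a1l2 in controls and 85.0 times at 32 µM in the authors' deposited table. The gain of 17.2 FPKM in eef1a1l2 equals 0.443% of the control level of eef1a1l1, whose own level was 158 FPKM lower at 32 µM. Summed over the 4 eEF1A genes, the level was 3936 FPKM in controls and 3796 at 32 µM, and the share of eef1a1l2 in that sum went from 0.674% to 1.15%. The part of read sharing in the result was not tested.

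None of the remaining eEF1A genes was called. By the authors' deposited tables eef1a1a had 26.5 FPKM in controls, 28.2 at 16 µM and 27.1 at 32 µM, with ratios of 0.10 (q = 0.998) and 0.03 (q = 0.925). This paralog has the same control level as eef1a1l2, and no step like that of eef1a1l2 between 16 and 32 µM. The weakest paralog, eef1a1b, had 8.0 FPKM in controls, 7.62 at 16 µM and 7.89 at 32 µM, with ratios of -0.06 (q = 0.998) and -0.02 (q = 0.971). Whether the ratio of eef1a1l2 differs from that of a paralog was not tested, since the tables hold no value per sample.

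**Figure D2:**
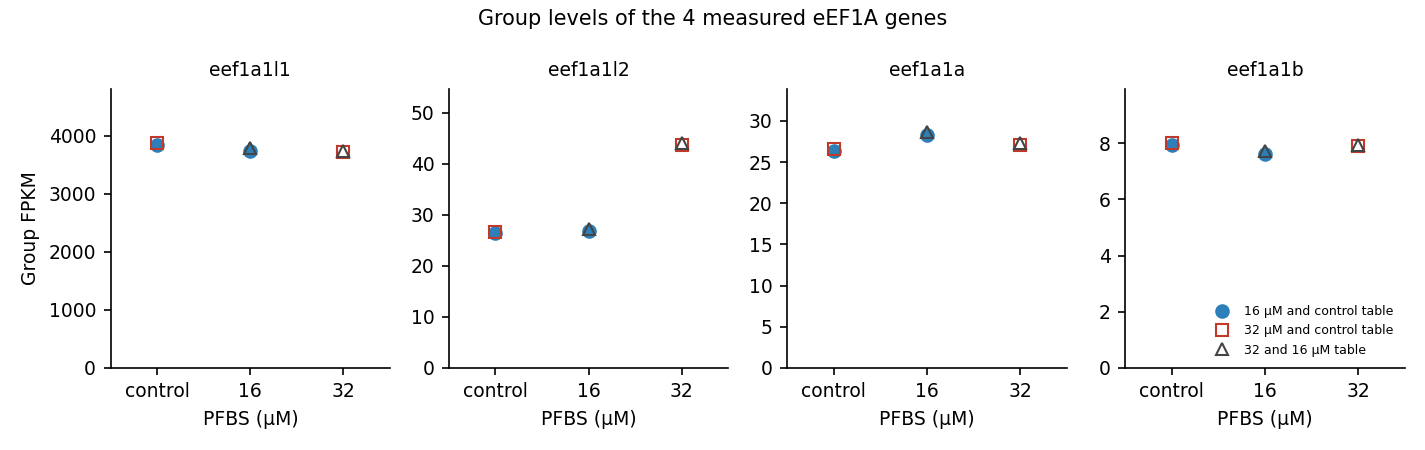
FPKM of the 4 measured eEF1A genes in controls and at 16 and 32 µM PFBS; each symbol is the authors' single group value in 1 of the 3 deposited tables, and each panel has its own axis from 0. Only eef1a1l2 shows a step, from 26.9 FPKM at 16 µM to 43.7 at 32 µM.

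The eEF1B complex is made of catalytic subunits, encoded by eef1b2, eef1da and eef1db, and a scaffold subunit, encoded by eef1g. Its genes ranged from 158 FPKM (eef1db) to 873 FPKM (eef1g) in controls. The scaffold gene eef1g had 832 FPKM at 16 µM and 826 at 32 µM, with ratios of -0.07 (q = 0.998) and -0.08 (q = 0.598) in the authors' deposited tables. The guanine nucleotide exchange gene eef1b2 had 584 FPKM in controls, 576 at 16 µM and 556 at 32 µM. Its ratios were -0.01 at 16 µM (q = 0.998) and -0.07 at 32 µM (q = 0.669). For eef1da the ratios were 0.01 at 16 µM (307 FPKM in controls and 309 at 16 µM in that table) and -0.02 at 32 µM (311 and 307 FPKM). All 4 eEF1B genes had negative ratios at 32 µM and none was called. When ratios were centred on the median of all named genes, -0.02 at 32 µM, those of eef1da and eef1db came to 0.

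The second eEF2 locus was barely expressed. Its gene eef2a.1 had, in the authors' deposited table for 32 µM, 3.14 FPKM in controls and 3.48 at 32 µM (0.15, q = 0.540), and its tandem copy eef2a.2 had 3.18 and 3.01 FPKM (-0.08, q = 0.924). The other tables join both names on 1 row, which was not called at 16 µM (-0.15, q = 0.998) or for 32 against 16 µM (0.27, q = 0.499). The kinase gene eef2k, whose product inactivates eEF2, had 37.5 FPKM in controls, 36.3 at 16 µM and 35.8 at 32 µM in the authors' deposited tables. Its ratio was -0.07 at both doses (q = 0.998 and 0.665). The methyltransferase gene eef2kmt, whose product modifies eEF2, had the lowest level of all members, 2.89 FPKM in controls, with a ratio of 0.01 at 32 µM (q = 0.996).

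Among initiation factors, the subunits of eIF2 lay within a 5.90-fold range in controls. The beta subunit gene eif2s2 had 175 FPKM in controls, 171 at 16 µM and 177 at 32 µM in the authors' deposited tables. The gamma subunit gene eif2s3 had 156, 158 and 153 FPKM. The alpha subunit, the target of the eIF2 kinases, is encoded by eif2s1b with 105, 104 and 102 FPKM and by the weaker eif2s1a with 29.7, 30.3 and 30.3 FPKM. Ratios of these 4 genes ran from -0.02 to 0.04 at 16 µM, with q = 0.998. At 32 µM they ran from -0.04 to 0.02, with q-values of 0.844 or more in the authors' deposited table.

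The exchange factor eIF2B, which reloads eIF2 with GTP, was less abundant, with its 5 subunit genes between 7.26 FPKM (eif2b1) and 23.4 FPKM (eif2b2) in controls. The largest ratio in this group was that of eif2b1, 0.21 at 32 µM, with 7.26 FPKM in controls and 8.46 at 32 µM (q = 0.791). At 16 µM the authors' deposited table splits eif2b1 over 2 rows of the same locus, with ratios of 0.14 and 0.17 and a summed level of 7.27 FPKM in controls and 8.08 at 16 µM. None of these rows was called. The other 4 subunit genes, each by its strongest row, had ratios from -0.03 to 0.05 at 32 µM in the authors' deposited table. A second row named eif2b5, of 3.12 FPKM in controls, had ratios of 0.18 at 16 µM (q = 0.998) and 0.10 at 32 µM (q = 0.915).

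The single eIF2 kinase gene among the members was eif2ak1, which encodes the haem-regulated kinase. It had 14.2 FPKM in controls and 13.8 at 32 µM in the authors' deposited table for that dose, a ratio of -0.04 (q = 0.893), and its ratio at 16 µM was -0.08 (q = 0.998). For 32 against 16 µM the authors' deposited table gives the same level of 12.4 FPKM in both groups. No other kinase gene of this family had a row of its own under an eif2ak name in the deposited tables, so none was analysed here. The alternative initiation factor genes eif2d and eif2a also stayed under the threshold, eif2d with 9.13, 10.1 and 9.78 FPKM in controls, at 16 and at 32 µM (ratios of 0.14 and 0.10). The eif2a row had 23.3 FPKM in controls and 23.4 at 32 µM, and the other tables join it with dcun1d5.

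The eIF3 complex contributed 16 genes. For 12 of its subunits (a to i, k, l and m, each by its most abundant gene, with subunit a as eif3s10 and subunit l as eif3s6ip), control levels lay between 90.5 FPKM (eif3ha) and 236 FPKM (eif3ea), a 2.60-fold range. At 32 µM the same 12 genes ran from 85.0 to 223 FPKM, a 2.62-fold range. Their ratios at 32 µM were all negative in the authors' deposited table, from -0.09 (eif3ha, q = 0.532) to -0.02, and none was called. Subunit f, encoded by eif3f, had 217 FPKM in controls, 220 at 16 µM and 208 at 32 µM. Control levels of the subunit genes eif3ba, eif3c, eif3d, eif3g, eif3i, eif3k and eif3m lay between 111 FPKM (eif3k) and 180 FPKM (eif3i), with ratios from -0.05 to -0.02 at 32 µM. At 16 µM the ratios of the 12 genes ran from -0.06 to 0.04, 6 of them negative. When ratios were centred on the median of all named genes, -0.02 at 32 µM, those at -0.02 came to 0.

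Both genes of the loosely bound subunit j had positive ratios and were not called. For eif3ja the authors' deposited tables give 34.3 FPKM in controls, 34.5 at 16 µM and 36.8 at 32 µM. Its ratios were 0.03 at 16 µM (q = 0.998) and 0.10 at 32 µM (q = 0.520). Its paralog eif3jb had 25.6, 26.2 and 28.4 FPKM, with ratios of 0.04 (q = 0.998) and 0.15 (q = 0.583). The minor paralogs eif3eb (4.14 FPKM in controls) and eif3hb (13.7 FPKM) both had a ratio of 0.13 at 32 µM, with q-values of 0.775 and 0.919 in the authors' deposited table. At 16 µM eif3hb had the largest ratio of any member, 0.22, and q = 0.998. The second row named eif3hb, of 9.51 FPKM in controls, had a ratio of 0.12 at that dose. At 32 µM this second row had a ratio of -0.01 (q = 0.996), unlike the 0.13 of the stronger row.

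**Figure D3:**
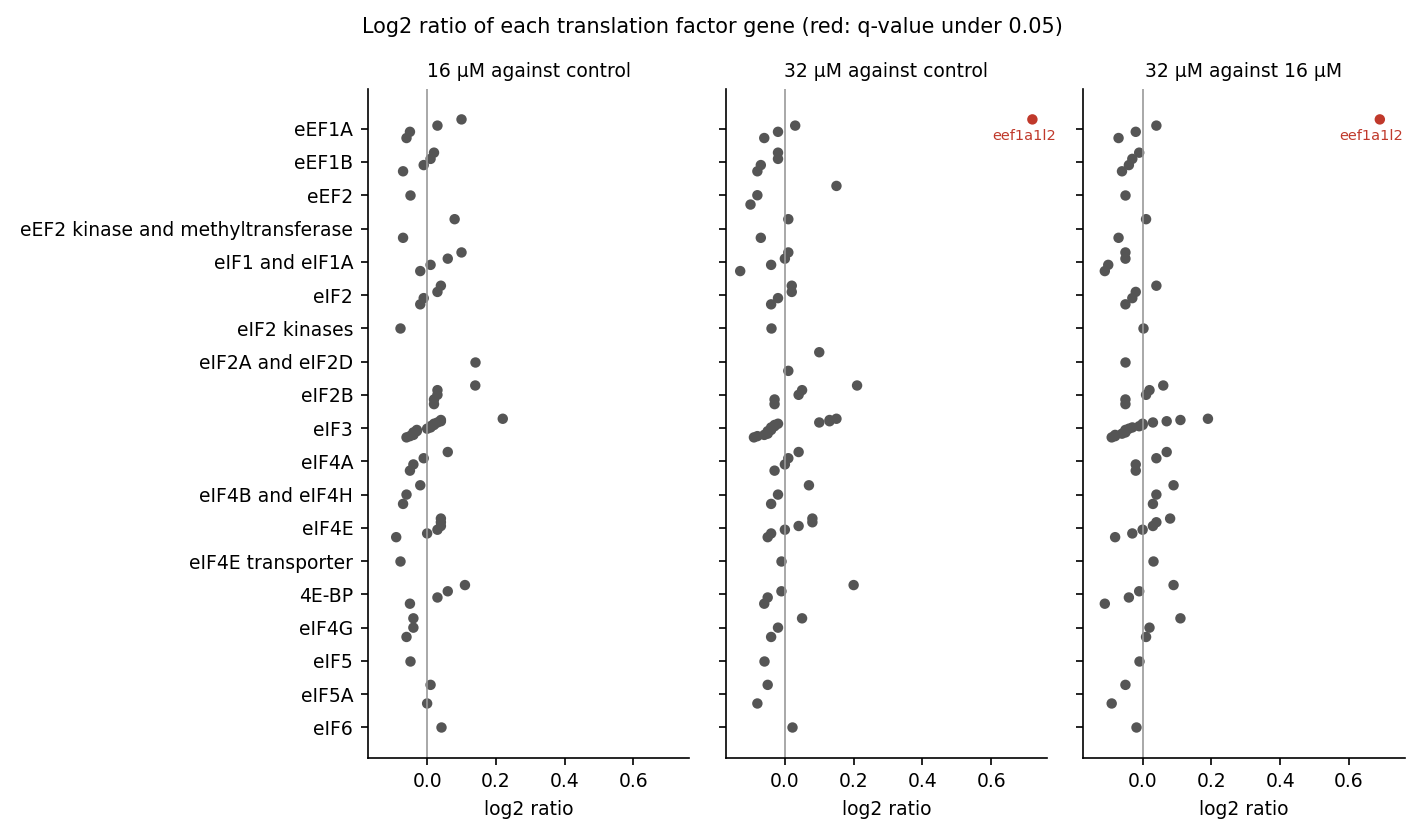
Log2 ratio of each translation factor gene in the 3 comparisons of the authors' deposited tables, in rows by factor; red marks a q-value under 0.05. Apart from eef1a1l2 at 0.72 and 0.69, every ratio lies between -0.13 and 0.22.

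Genes of scanning and start site selection differed widely in level. The row named eif1b had 370 FPKM in controls, 370 at 16 µM and 362 at 32 µM in the authors' deposited tables, with ratios of 0.01 and -0.04. It lies on chromosome 19, where the RefSeq annotation of GRCz12tu places eif1 and gives eif1b as its older name. The gene now called eif1b there is the row zgc:56676 of the deposited tables, which the choice by name leaves out and which had 125 FPKM in controls and 121 at 32 µM (-0.06, q = 0.773). The eIF1A genes eif1axb and eif1axa had 99.0 and 18.0 FPKM in controls. The ratio of eif1axa at 32 µM, -0.13, was the most negative of any member in the authors' deposited tables (18.0, 17.6 and 16.4 FPKM, q = 0.578). Its ratio at 16 µM was -0.02 (q = 0.998). For eif1axb the level was 106 FPKM at 16 µM and 99.0 at 32 µM, with ratios of 0.10 and 0 that were not called. The related gene eif1ad had 24.3, 25.1 and 24.4 FPKM, with ratios of 0.06 and 0.01. The GTPase activator gene eif5 had 127, 123 and 122 FPKM, with ratios of -0.05 at 16 µM (q = 0.998) and -0.06 at 32 µM (q = 0.709).

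The cap-binding machinery was spread over a wide range of levels. The helicase eIF4A, which unwinds mRNA, is encoded by eif4a1b with 261 FPKM in controls and 258 at both doses, eif4a1a with 101, 97.0 and 102 FPKM and eif4a2 with 26.4, 27.3 and 27.1 FPKM. The exon junction complex member eif4a3 had 75.1, 72.5 and 75.1 FPKM. Ratios of these 4 genes ran from -0.05 to 0.06 at 16 µM and from -0.03 to 0.04 at 32 µM in the authors' deposited tables. The 6 genes of the cap-binding protein eIF4E and its relatives had 11.6 to 31.8 FPKM in controls, the highest being eif4e1c and the lowest eif4e2, and ratios from -0.05 to 0.08 at 32 µM. The most negative ratio of any member at 16 µM, -0.09, was that of eif4e2rs1 (q = 0.998), with 26.7 FPKM in controls, 24.9 at 16 µM and 25.6 at 32 µM. The eIF4G family genes eif4g1a, eif4g2a and eif4g2b had 36.3, 46.2 and 76.1 FPKM in controls and ratios from -0.04 to 0.05 at 32 µM. The helicase partners eif4bb, eif4ba and eif4h had ratios of -0.07, -0.06 and -0.02 at 16 µM and of -0.04, -0.02 and 0.07 at 32 µM. Levels of eif4bb were 70.5 FPKM in controls, 67.2 at 16 µM and 68.6 at 32 µM. The eIF4E transporter gene eif4enif1 had 8.06, 7.52 and 8.0 FPKM, with ratios of -0.08 (q = 0.998) and -0.01 (q = 0.987).

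The 4E-BPs, which hold eIF4E inactive when mTOR signalling is low, had ratios of both signs, none of them called. The gene eif4ebp3 had 20.7 FPKM in controls, 22.2 at 16 µM and 23.8 at 32 µM. Its ratios of 0.11 (q = 0.998) and 0.20 (q = 0.315) in the authors' deposited tables did not pass the test, although at 32 µM its q-value was the smallest of the 69 members that were not called. RefSeq also lists eif4ebp3 as an older name of eif4ebp3l, and the row lies on chromosome 21, where RefSeq places the current eif4ebp3. The most abundant 4E-BP gene, eif4ebp2, had 119, 115 and 115 FPKM. Its ratios were -0.05 at 16 µM (q = 0.998) and -0.06 at 32 µM (q = 0.701). For eif4ebp1 the values were 71.0, 73.5 and 68.6 FPKM, with ratios of 0.06 (q = 0.998) and -0.05 (q = 0.823). For eif4ebp3l they were 36.8, 37.3 and 36.5 FPKM, with ratios of 0.03 (q = 0.998) and -0.01 (q = 0.990). At 32 µM 3 of the 4 genes therefore had negative ratios and 1 a positive one.

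The translation factor eIF5A, which carries the modified lysine hypusine and helps ribosomes past difficult peptide bonds, was among the most abundant. Its main gene eif5a had 809 FPKM in controls, 809 at 16 µM and 765 at 32 µM, with ratios of 0.01 (q = 0.998) and -0.08 (q = 0.621) in the authors' deposited tables. Its paralog eif5a2 had 112, 111 and 108 FPKM, with ratios of 0 (q = 0.998) and -0.05 (q = 0.779). The 60S-binding factor gene eif6 had 41.6, 42.5 and 42.2 FPKM and ratios of 0.04 and 0.02.

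The balance between duplicated genes was described by the ratio of their levels, which carries no test. Besides eef1a1l1 and eef1a1l2, 14 chosen pairs of paralogs were set against each other in the authors' deposited table for 32 µM. Other possible pairs, such as eef2b with eef2a.2 and eif4ebp3 with eif4ebp3l, were left out. The log2 of the level of the stronger over the weaker gene shifted by between -0.25 and 0.13 in the 14 pairs, against -0.78 for eef1a1l1 over eef1a1l2. The shift of -0.25 was that of eef2b over eef2a.1, a gene of only 3.14 FPKM in controls. Strong asymmetry was common: eif3ea exceeded eif3eb 56.9-fold in controls, eif5a exceeded eif5a2 7.21-fold and eif1axb exceeded eif1axa 5.50-fold. By contrast eef1da exceeded eef1db 1.97-fold in controls and at 32 µM alike.

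The members as a group stayed close to 0 at both doses. Their median ratio was 0.01 at 16 µM and -0.02 at 32 µM, beside -0.02 for all named genes in each of these authors' deposited tables. Ratios between -0.10 and 0.10 were held by 94.0% of the members at 16 µM and 88.6% at 32 µM, against 70.9% and 67.2% of all named genes. Among genes reaching 5 FPKM the shares were 95.3% and 90.9% of members, against 77.7% and 73.1% of named genes. The members' levels are higher than those of most genes, and among genes reaching 100 FPKM that range held 100% of members at both doses (27 of 27 and 26 of 26), against 88.1% and 82.3% of named genes. Both control contrasts share the same control samples, so the 2 medians are not independent of each other.

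**Figure D4:**
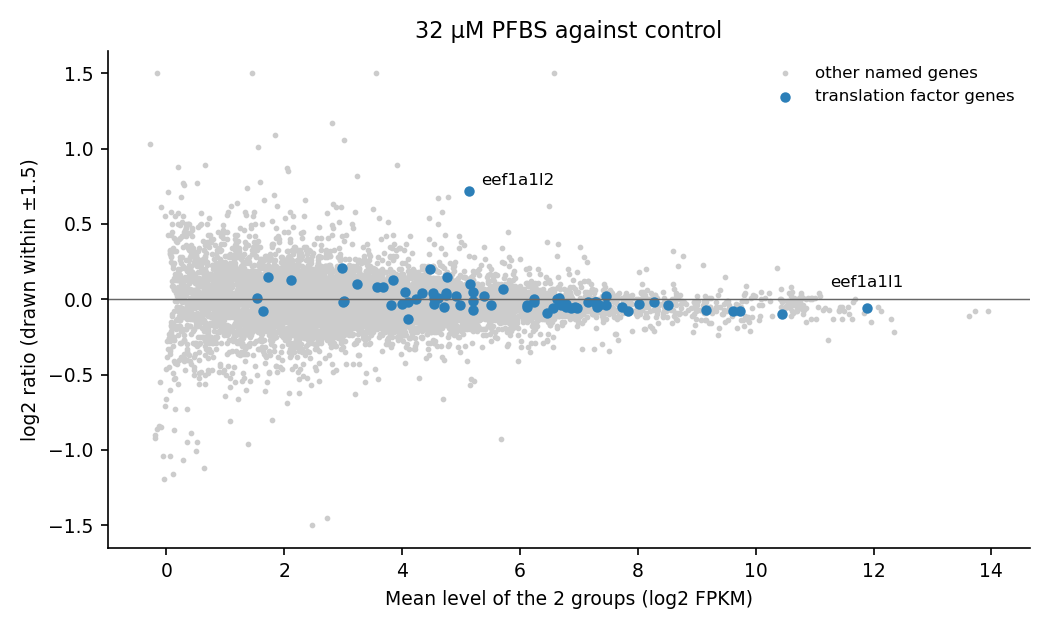
Log2 ratio of 32 µM PFBS to control against the mean level of the 2 groups (log2 FPKM), for all 11685 named genes of the authors' deposited table (grey) and the 70 translation factor genes (blue); ratios beyond ±1.5 are drawn at the edge. The spread narrows with level, and eef1a1l2 at 0.72 lies outside the band held by the other members.

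Abundant members mostly had slightly negative ratios at 32 µM. Of the 26 members reaching 100 FPKM, 24 had a negative ratio in the authors' deposited table, with a median of -0.04 and no call. The exceptions were eif2s2 and eif4a1a. Of all 700 named genes reaching 100 FPKM, 73.4% had a negative ratio, a smaller share than that of the members, with the same median of -0.04. Most other abundant genes thus had the same direction, and the difference in share was not tested. After centring on the median of all named genes, 20 of the 26 members and 61.4% of the 700 genes were still negative. At 16 µM 15 of 27 such members had a negative ratio, which became 11 of 27 after centring. Of the 703 named genes reaching 100 FPKM in that table, 56.3% had a negative ratio, and 44.2% after centring. For 32 against 16 µM, 22 of 27 such members and 69.5% of 708 such named genes had a negative ratio.

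Lists of other genes of translation and its control are read beside the called share of all named genes, 2.31% at 32 µM, 0.376% at 16 µM and 0.427% for 32 against 16 µM. Among 17 partners of initiation at the cap and the poly(A) tail, the gene pdcd4b fell at 32 µM, whose product inhibits the helicase eIF4A. This 1 call rests on 32.7 FPKM in controls and 27.9 at 32 µM in the authors' deposited table (-0.22, q = 0.00521; chromosome 22, 32348471 to 32379619). At 16 µM its level was 28.8 FPKM and its ratio -0.16 (q = 0.998). The paralog pdcd4a had a ratio of -0.13 at 32 µM (q = 0.248), and the kinase gene mknk2a, whose product phosphorylates eIF4E, had -0.20 (q = 0.383). The median of this list at 32 µM was -0.03, and none of its genes was called at 16 µM or for 32 against 16 µM.

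None of the other 7 lists held a called gene in any of the authors' deposited tables, and at these background shares most lists of this size are too short for that count to tell them from named genes at large. The 77 ribosomal protein genes measured at 32 µM had ratios from -0.08 to 0.09 and a median of -0.02, with rps28 at 0.09 (q = 0.458) and rpl10 at -0.08 (q = 0.565). At 16 µM the 78 measured ribosomal protein genes had a median of 0.03. The 15 aminoacyl-tRNA synthetase genes, whose products load tRNAs, had medians of -0.02 at 16 µM and -0.03 at 32 µM, with dars (-0.11, q = 0.366) and tars (0.07, q = 0.691) nearest the threshold at 32 µM. Release and recycling factors, 8 genes, had a median of -0.05 at 32 µM, and pelo (-0.15, q = 0.493) and etf1a (-0.29, q = 0.568) came nearest. Mitochondrial translation factors, also 8 genes, had a median of -0.09 at 32 µM, and the elongation factor genes tsfm (0.22, q = 0.194) and tufm (-0.12, q = 0.349) had ratios of opposite sign. The 12 genes whose products modify elongation factors or serve selenocysteine insertion had a median of -0.03 at 32 µM, with dph1 at -0.11 (q = 0.763) and dph3 at 0.18 (q = 0.853).

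Targets of the integrated stress response, the programme that follows phosphorylation of eIF2 alpha, numbered 28. Their median in the authors' deposited tables was -0.06 at 16 µM and -0.03 at 32 µM, with 6 and 10 positive ratios. The transcription factor gene atf4a, a central member, had 202 FPKM in controls and 191 at 32 µM (-0.08, q = 0.580), and ddit3, which encodes CHOP, had 30.9 and 31.6 FPKM (0.03, q = 0.943). The asparagine synthetase gene asns had a ratio of -0.07 at 32 µM (q = 0.771). Nearest the threshold were atf3 (0.21, q = 0.298) and psat1 (-0.14, q = 0.307) at 32 µM, and chac1 (-0.24, q = 0.227) at 16 µM. Of the 22 mTOR pathway genes, mtor itself had 5.94 FPKM in controls and 6.15 at 32 µM (0.05, q = 0.905). The lysosomal adaptor gene lamtor3 came nearest in that list, with ratios of 0.32 at 16 µM (q = 0.373) and 0.21 at 32 µM (q = 0.286), followed at 32 µM by the sestrin gene sesn3 (0.11, q = 0.440).

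**Figure D5:**
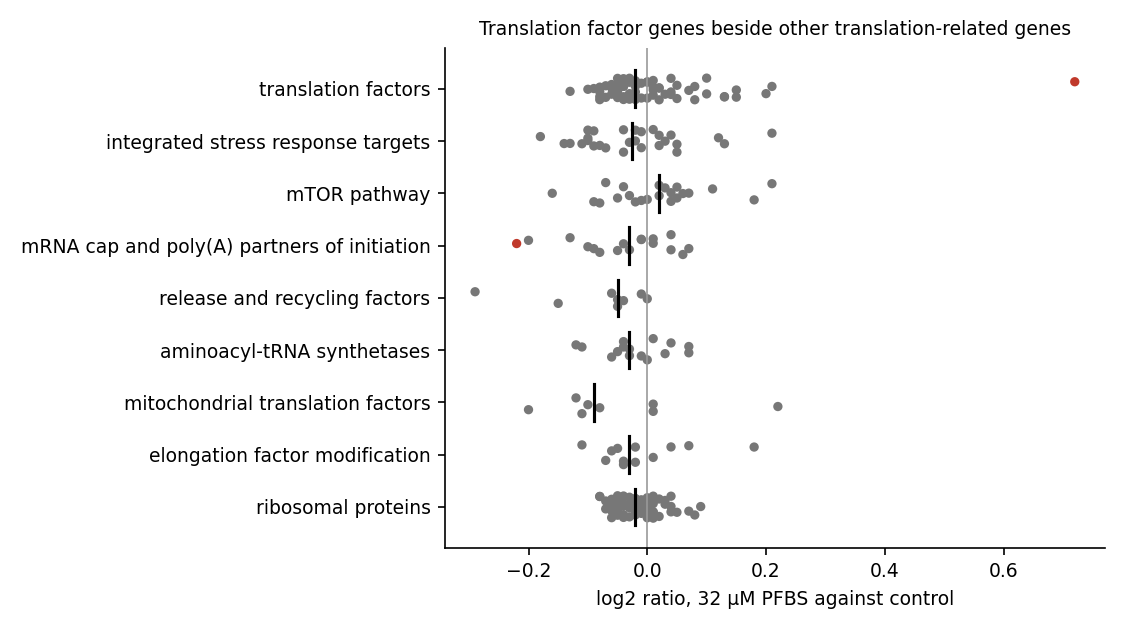
Log2 ratio of 32 µM PFBS to control in the authors' deposited table for the translation factor genes and 8 lists of other translation-related genes; each point is a gene, the bar is the list's median, and red marks a q-value under 0.05. The red points are eef1a1l2 at 0.72 and pdcd4b at -0.22, and all medians lie between -0.09 and 0.02.

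Each group appears in 2 of the 3 tables, and its repeated levels were compared for the 67 members present in all of them. For 63 of these, the 2 values of each group differed by at most 0.05 on the log2 scale. The exceptions were eif2ak1, eif2b1, eif2b3 and eif4enif1, with the largest difference, 0.71, in the split eif2b1. For eef1a1l2 the largest difference was 0.02, and its ratios at 16 µM and for 32 against 16 µM add up to the 0.72 of 32 µM against control. The 3 tables draw on the same samples, so this agreement is no independent support for the ratio.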

How the data were processed

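Each of the 3 tables the authors deposited compares 2 groups, with 1 log2 FPKM value per group, a log2 ratio, a q-value and a call, per the file headers. Every row of the 32 µM table reaches 1 FPKM in a group; the others hold lower rows too. On every row the ratio equals the second group minus the first within 0.011, and calls are q-values under 0.05. The submitters' processing notes name Cufflinks and danRer7; the aligner, versions, annotation and statistical test used are not stated there.

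FPKM were computed as powers of 2, taking -10 as 0. Rows naming a single gene were reduced to 1 row per name (highest mean level) with Python 3.11.15 and pandas 2.3.3. No test was added: calls rest on the authors' deposited q-values. Counting was tested on simulated data. All 70 member names are current RefSeq symbols (GRCz12tu), of which eif1b and eif4ebp3 are also older names of another gene; list genes were matched by symbol or by a synonym of 1 symbol. Members and lists were chosen with earlier results of these data known. The rule for named members took the called ones, the 10 with the highest control level, the 6 largest changes in each direction per dose at 5 FPKM or more, and all eEF1A, 4E-BP, eef2k and eIF2 kinase genes; of each list, called genes and the 2 next nearest the threshold at 32 µM were named. Further members and list genes are given for their role, chosen after their values were seen. No sequences are shown.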

Additional observations from a re-analysis of the deposited data

Results flagged for a closer look

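The response of eef1a1l2 differed between the doses: in the authors' deposited table for 32 against 16 µM its log2 ratio was 0.69 (q = 0.0194), with 27.3 FPKM at 16 µM and 44.0 at 32 µM. Against the shared control its ratios were 0.03 and 0.72. The ratios of 0.69 and 0.72 rest on the same 32 µM samples.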

How the results depend on the processing

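The count of called members was the same, 0 at 16 µM and 1 at 32 µM, with a q-value under 0.01 or under 0.10, with every row, at 5 FPKM or more, and without rows that share a locus. For 32 against 16 µM the 1 call was kept in all of these except a q-value under 0.01, where 0 members remained. The smallest q-value in that table is 0.0194, and in the table for 16 µM against control it is 0.0219. No gene could therefore pass 0.01 in either of them. Centring on the median of named genes reaching 1 FPKM (-0.02 at both doses against control) moved the members' median to 0.03 at 16 µM and to 0 at 32 µM, and it changed the sign, or moved to 0 or from 0, the ratio of 9 members at 16 µM and 12 at 32 µM, none of them called. With log2(FPKM + 1), with every row and at 5 FPKM or more the medians moved by at most 0.01. Leaving out single samples was not possible with group values. No paired analysis was possible because the tables give 1 value per group and the labels do not tie samples to an experiment. Depth is unknown, so members with q-values above the threshold may differ by amounts these data cannot resolve.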
